A study of Mus musculus with 21 samples.

Results

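The 8 RNA libraries of control hearts, 5 from embryonic day (E) 9.5 and 3 from E10.5, were compared with each other to describe how the mouse heart changed over this day when Chd4 was intact. They were taken by their labels, flox at either stage, and make up 8 of the 21 samples of the series and 8 of its 16 RNA samples. All 8 came from cardiac tissue of CD1 embryos carrying Chd4(flox/flox), loxP-flanked but unrecombined alleles of Chd4, the remodelling ATPase of the NuRD complex. The other RNA samples, 5 libraries labelled Chd4(Δflox/Δflox) at E9.5 and 3 at E10.5 (null below), are used here only to set a second stage change beside the first. The labels do not name the recombinase line or say how many hearts went into a library, and they give 200 ng of RNA per E9.5 library and 300 ng per E10.5 library. Each stage sits in a table of its own, so stage, table and RNA input cannot be told apart. Levels are in RPKM, reads scaled by gene length and by the read total of that library. Each library was scaled on its own by this unit, and the 24509 genes and their lengths are the same in both tables, so the tables were joined without further scaling.

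Around E9.5 the mouse heart is a looped tube whose outer curvature balloons into chambers, and trabeculae, sheets of muscle that project into the lumen, are forming. Over the next day endocardial cells of the cushions turn into mesenchyme that will build the valves, and cells of the proepicardium spread over the surface as epicardium, a later source of fibroblasts. Blood cells of the yolk sac circulate through the lumen, and the early embryo relies on glycolysis under low oxygen before muscle turns to fatty acids. Hypoxia-inducible factor (HIF), which switches on glycolytic genes when oxygen is low, binds DNA at a short core sequence.

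Glucose transport and glycolysis held the lowest median change of the 28 gene lists examined, so the DNA ahead of its leading genes is shown first. These are the 250 bases upstream of the annotated start of the 4 list members with the smallest p under the stage test, from RefSeq on GRCm38.p6 (the assembly of mm10), 5′ to 3′ on the gene's strand. Capitals mark every ACGTG or its reverse complement CACGT, which may overlap each other. These letters are a form of the core of the HIF site, and its other forms were not marked or counted.
Slc16a3 (chr11:120948817-120949066, plus strand): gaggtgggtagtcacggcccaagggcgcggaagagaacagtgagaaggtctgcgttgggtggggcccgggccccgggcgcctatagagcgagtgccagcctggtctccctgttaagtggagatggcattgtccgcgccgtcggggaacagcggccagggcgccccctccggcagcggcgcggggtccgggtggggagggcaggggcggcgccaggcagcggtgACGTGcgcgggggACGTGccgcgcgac
Slc2a1 (chr4:119108495-119108744, plus strand): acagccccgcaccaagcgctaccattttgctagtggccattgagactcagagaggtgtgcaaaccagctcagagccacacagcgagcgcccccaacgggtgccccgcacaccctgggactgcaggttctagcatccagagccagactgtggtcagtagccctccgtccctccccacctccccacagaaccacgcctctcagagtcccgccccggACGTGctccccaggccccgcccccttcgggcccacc
Eno3 (chr11:70656926-70657175, plus strand): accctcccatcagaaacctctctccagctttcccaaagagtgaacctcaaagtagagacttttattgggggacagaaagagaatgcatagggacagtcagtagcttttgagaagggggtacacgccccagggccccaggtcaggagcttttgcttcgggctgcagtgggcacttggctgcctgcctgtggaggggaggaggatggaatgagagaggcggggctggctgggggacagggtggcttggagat
Hk1 (chr10:62379909-62380158, minus strand): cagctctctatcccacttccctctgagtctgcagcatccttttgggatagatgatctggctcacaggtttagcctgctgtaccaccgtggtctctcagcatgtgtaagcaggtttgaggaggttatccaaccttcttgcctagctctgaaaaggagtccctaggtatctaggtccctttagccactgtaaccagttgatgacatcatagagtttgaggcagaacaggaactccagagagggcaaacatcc
Slc16a3 holds the letters at -27 and -14 and Slc2a1 at -36, counted from the annotated start, while Eno3 and Hk1 hold none in this window. Of the 27 measured list members with a promoter in the table, 12 (44.4%) hold the letters on either strand. They occur in 22.1% of the 10161 tested genes with a promoter and in 16.6% of all 27025 promoters of this length. Among the 16 list members with a promoter that fell, 6 (37.5%) hold them. Over all tested genes with a promoter, they occur in 23.6% of those that fell and in 20.6% of those that rose. The list was chosen to hold genes of the hypoxia response, so its share is no independent result. A match is a description of the letters and not evidence of a bound site.

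E9.5 libraries held between 19.6 and 23.5 M reads, and E10.5 libraries between 17.3 and 18.0 M. No 2 libraries held the same values. Pairs of E9.5 replicates had a chi-square over degrees of freedom between 9.78 and 25.6, and pairs of E10.5 replicates between 16.1 and 41.3, so all exceeded sampling noise. The submitters call the libraries biological replicates. Cardiomyocyte markers (Myh6, Myh7, Tnnt2, Actc1, Nkx2-5, Myl7, Ttn) were present in all 8, and the stages separated along the first principal component, which held 56.2% of the variance. Several libraries stood apart from their stage. At E9.5, replicates 1 and 3 were low in epicardial genes, with 0.0236% and 0.0476% of reads on that list, where the remaining 3 held between 0.0610 and 0.0821%, and replicate 4 was high in glycolysis and hypoxia genes (1.38% against 0.795 to 0.884%). At E10.5, replicate 2 was high in erythroid genes (5.18% against 1.78 and 1.80%) and in foregut, lung and liver genes (0.0564% against 0.00364 and 0.00959%). Replicate 5 at E9.5 and replicate 2 at E10.5 held transcripts of the Y chromosome and the others did not beyond trace levels. In bulk hearts, fewer cells of a type and less RNA per cell cannot be told apart.

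The stage was tested for every gene with a mean of at least 0.5 RPKM, on log2(RPKM + 0.5), which understates changes near that level. A gene near 0 at 1 stage could pass this filter through the other stage alone. Rises or falls in lists of low genes depend in part on that. Of 13669 genes tested with limma, 3906 rose (28.6%) and 3065 fell (22.4%) at a Benjamini-Hochberg adjusted p under 0.05, together 51.0%. Changes of at least 2-fold were fewer, 344 rises (2.52%) and 338 falls (2.47%), and in 48.5% of genes the libraries of the stages did not overlap. The median change over all genes tested was 0.04 on the log2 scale. With the level of epicardial genes as a term in the fit, 4496 genes passed, 2540 rises and 1956 falls. The epicardial share of reads was at most 0.0821% at E9.5 and at least 0.0858% at E10.5, so this term partly follows stage. A call lost with it, here and below, may reflect lost precision and does not show that the change came from epicardial cells. With about 1 in 2 genes called, a list in which 1 in 2 members pass is at the background, so direction and size carry more than the count. Every adjusted p of a gene below is limma's and two-sided.

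The largest rises included genes of mesenchyme and of the heart's surface. Dcn, which codes for the matrix proteoglycan decorin, stood at 0.867, 10.7, 2.21, 5.995 and 4.70 RPKM in E9.5 replicates 1 to 5 and at 33.8, 26.1 and 27.1 in E10.5 replicates 1 to 3 (log2 change 2.78 ± 0.56 SE, adjusted p = 0.0031). Postn, coding for periostin, a matrix protein of cushion and fibroblast cells, stood at 2.56, 18.3, 4.12, 11.2 and 10.6 and then at 62.3, 58.5 and 34.0 (log2 change 2.64 ± 0.54 SE, adjusted p = 0.0032). Every E10.5 library lay above every E9.5 library for both, and the E9.5 libraries themselves spread widely, with replicate 1 lowest and replicate 2 highest. Ptn, a heparin-binding growth factor, was at 5.48, 29.1, 12.2, 22.2 and 19.4 and then 72.0, 96.1 and 69.6 RPKM (log2 change 2.31 ± 0.44 SE, adjusted p = 0.0023). Epha3, an ephrin receptor, was at 0.541, 2.14, 0.797, 1.39 and 0.946 and then 9.98, 9.86 and 7.46 (log2 change 2.59 ± 0.27 SE, adjusted p = 0.00015). Lum (lumican), Aldh1a2, Hpgd, Ctse, Ebf3, Efemp1, Ddr2 (a collagen receptor), Ppbp, Tmem255a, Kcne1l and Ndufb4 complete the 15 largest rises, with changes from 2.14 to 2.71.

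The largest falls included genes of Nodal signalling and of early mesenchyme. Cck, coding for the peptide cholecystokinin, fell from 50.4, 15.3, 39.3, 24.5 and 21.6 RPKM to 4.05, 1.96 and 4.28 (log2 change -2.90 ± 0.37 SE, adjusted p = 0.00034), the largest fall by the rule. Foxh1, a partner of Smad proteins in Nodal signalling, stood at 26.3, 5.996, 23.97, 9.03 and 11.2 and then at 1.71, 3.75 and 1.99 (log2 change -2.26 ± 0.46 SE, adjusted p = 0.0031). Tdgf1, the Nodal co-receptor also called Cripto, stood at 11.6, 1.13, 7.21, 2.95 and 3.85 and then at 0.897, 0.231 and 0.570 (log2 change -2.19 ± 0.56 SE, adjusted p = 0.0095). Tdgf1 lost its call with the epicardial or the foregut, lung and liver level as a term (adjusted p = 0.14 and 0.070). It also did so, narrowly, in a limma fit of read counts (0.0503). For Foxh1 and Tdgf1 the E9.5 libraries again differed widely, here with replicates 1 and 3 highest and replicate 2 lowest. Col2a1, the fibrillar collagen of cartilage and of early cushions, was far apart between stages compared with the spread within them, at 106, 70.2, 83.3, 72.8 and 77.9 and then 19.2, 20.4 and 18.999 RPKM (log2 change -2.03 ± 0.12 SE, adjusted p = 2.9e-05). Sfrp5, a secreted Wnt antagonist of the inflow region, stood at 18.2, 10.1, 35.5, 8.72 and 17.3 and then at 3.49, 3.98 and 4.93 (log2 change -1.83 ± 0.38 SE, adjusted p = 0.0036, and 0.064 with the epicardial level as a term). The rest of the 15 largest falls were Aldoart2, Nptx2, Atp2a1, Hapln3, Slfn5os, Dmpk, Slc16a3, Rn45s, Rplp1 and Llgl2, from -2.18 to -1.79. Aldoart2 is a retrogene copy of Aldoa that may share its reads, and Rn45s is ribosomal RNA, which poly(A) selection should mostly remove.

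E9.5 replicates 1 and 2 were most often at opposite ends of the E9.5 range in these genes. Of the 15 largest rises, replicate 1 was the lowest E9.5 library in 13 and replicate 2 the highest in 11. Of the 15 largest falls, replicate 1 was highest in 9 and replicate 2 lowest in 9. Over all called rises of at least 2-fold, replicate 1 was lowest in 176 of 344 and replicate 2 highest in 174, and over the falls of that size replicate 1 was highest in 113 of 338 and replicate 2 lowest in 118. These genes were chosen with the same libraries, so the counts are a description.

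**Figure D1:**
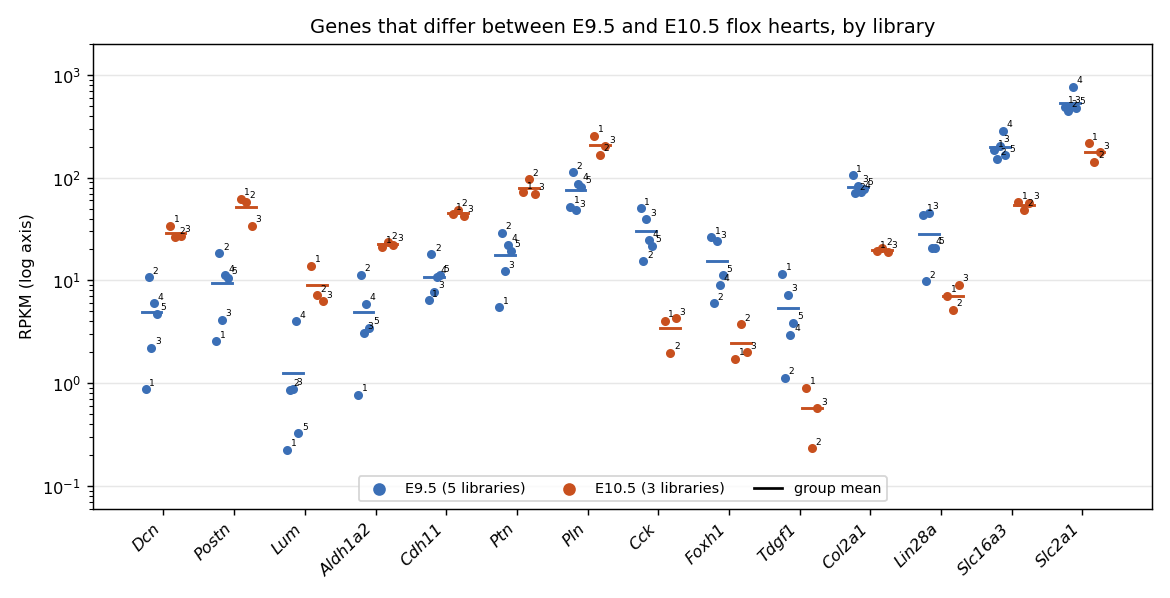
RPKM (log axis) of 14 genes in each flox library, E9.5 in blue and E10.5 in orange, with the replicate number beside each point and a line at the group mean. The stages do not overlap for any of the 14, and E9.5 replicate 1 lies lowest for Dcn, Postn, Aldh1a2 and Ptn and highest for Cck, Foxh1 and Tdgf1.

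The contractile apparatus of the cardiomyocyte held a smaller share of the transcripts at E10.5. Of 30 measured sarcomere genes 18 fell and 3 rose, with a median change of -0.52, and the list took between 4.25 and 4.89% of the reads on genes in E9.5 libraries, and between 2.05 and 3.39% in E10.5 libraries. Ttn, the giant spring protein of the sarcomere, stood at 14.9, 11.9, 9.55, 12.4 and 11.8 RPKM and then at 4.05, 3.39 and 2.37 (log2 change -1.75 ± 0.17 SE, adjusted p = 0.00011). Xirp1 and Myom1 (a protein of the M band), also among the members with the smallest p, changed by -1.29 and -0.88. Myh6, the alpha myosin heavy chain, stood at 551, 528, 526.3, 367 and 484 and then at 252, 159 and 295 (log2 change -1.09 ± 0.20 SE, adjusted p = 0.0021). Tnni1, the slow skeletal troponin I that embryonic hearts use, stood at 1496, 1109, 1104, 898 and 1056 and then at 717, 465 and 669 (log2 change -0.88 ± 0.19 SE, adjusted p = 0.0047).

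The sarcomere list did not move as one. Myl2, the ventricular regulatory light chain, was at 1719.9, 2084, 1338, 1850.4 and 1649 RPKM at E9.5 and at 3251, 1935 and 3269.9 at E10.5 (log2 change 0.68 ± 0.22 SE, adjusted p = 0.029), with E10.5 replicate 2 inside the E9.5 range. Its atrial counterpart Myl7 stood at 3797, 2552, 3192, 2945 and 2922 and then at 2148, 1384 and 2361 (log2 change -0.67 ± 0.22 SE, adjusted p = 0.028). The call of Myl2 was lost without any 1 of 5 libraries (E9.5 replicates 1, 3 and 5 and E10.5 replicates 1 and 3), with adjusted p up to 0.11, and that of Myl7 without E9.5 replicate 1, 3 or 5, up to 0.061. Tnnt2 (-0.49), Tnnc1 (-0.48) and Myl4 (-0.54) passed just as narrowly, with adjusted p from 0.033 to 0.038. Each lost its call without E9.5 replicate 1 (0.070 to 0.082), and also without E9.5 replicate 2, 3 or 5 or E10.5 replicate 2. Tnnc1 lost it without E10.5 replicate 1 as well (0.051). E10.5 replicate 2, the library richest in erythroid reads, was lowest in the sarcomere share, and without the 2 E9.5 libraries low in epicardial genes 12 members fell and 1 rose. The rises also numbered 1 without E10.5 replicate 1 or 3. With the erythroid or the epicardial level as a term in the fit 9 members fell, and with the foregut, lung and liver level 10.

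Ratios between related genes within a library do not depend on how that library was scaled, apart from the pseudocount. In 14 of 20 pairs the stages did not overlap, 6 higher and 8 lower at E10.5. Of all single genes tested 48.5% did not overlap, and the share over other gene pairs was not computed. The pairs were chosen and not drawn at random, so the count is a description. An exact permutation test of 5 against 3 libraries cannot give a two-sided p below 0.0357, and adjusted over the 20 pairs none passed (adjusted p = 0.051 for all 14). The log2 ratio of Myl2 to Myl7 was -1.14, -0.29, -1.25, -0.67 and -0.83 at E9.5 and 0.60, 0.48 and 0.47 at E10.5, a difference of 1.35. That of Tnni3, the adult cardiac troponin I, to Tnni1 was -1.89, -1.60, -1.80, -1.69 and -1.70 and then -1.13, -1.04 and -0.93, a difference of 0.70. Other pairs of this kind did not shift the same way. Myl3 over Myl4, again a ventricular over an atrial light chain, overlapped between stages (difference 0.15, exact permutation p = 0.29), as did Myh7 over Myh6. The muscle forms Cox6a2, Cox7a1 and Eno3 lost share to Cox6a1, Cox7a2 and Eno1 with no overlap (differences -0.47, -0.88 and -0.74). The muscle forms Cox8b and Ckm instead gained on Cox8a and Ckb, also with no overlap (differences 1.31 and 1.03). Pgam2 over Pgam1 overlapped between stages (difference -0.53). Few reads stood behind some of these ratios, with 13 to 52 per flox library for Cox8b, 11 to 52 for Ckm and 19 to 43 for Pgam1. Eno1 held 191 to 387 reads where Eno3 held 1897 to 6072. The shifts of these pairs are therefore uncertain. Skeletal actin lost against cardiac actin: Acta1 over Actc1 was -4.01, -4.39, -3.82, -3.99 and -4.33 and then -4.88, -4.94 and -4.93. Gja5 over Gja1, connexin 40 over connexin 43, was lower by 0.71 on the log2 scale, and Kcnj5 over Kcnj3, the subunits of an atrial potassium channel, by 0.96.

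**Figure D2:**
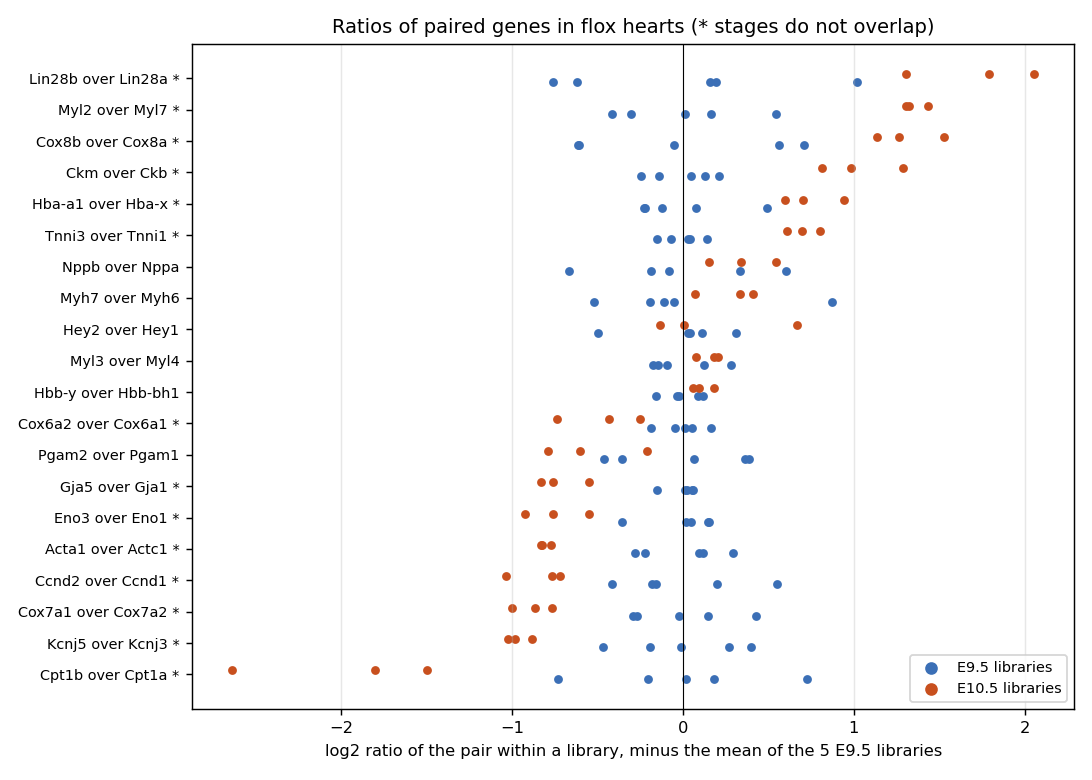
Log2 ratio of 20 gene pairs in each flox library, set to 0 at the mean of the 5 E9.5 libraries (blue), with the 3 E10.5 libraries in orange and a star where the stages do not overlap. The largest shifts are Lin28b over Lin28a (1.72 higher) and Cpt1b over Cpt1a (1.98 lower).

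Among the genes of calcium handling and the cell membrane, 12 of 24 measured fell and 4 rose, with a median change of -0.38. Cacna1h, a T-type calcium channel, stood at 20.8, 21.2, 17.4, 24.9 and 19.1 RPKM and then at 7.08, 6.10 and 5.42 (log2 change -1.66 ± 0.12 SE, adjusted p = 6.1e-05). Hcn4, the channel of the pacemaker current, stood at 23.9, 19.7, 30.3, 19.4 and 25.1 and then at 9.64, 6.90 and 8.29 (log2 change -1.46 ± 0.16 SE, adjusted p = 0.00016). The other T-type channel Cacna1g, named after its values were seen, rose at a low level, from 0.188, 0.390, 0.373, 0.644 and 0.340 to 0.496, 1.62 and 0.909 (log2 change 0.72 ± 0.26 SE, adjusted p = 0.041), and lost its call without any 1 of 6 libraries (all but E9.5 replicate 4 and E10.5 replicate 1, adjusted p up to 0.17). Kcnh2, a repolarising potassium channel, and Cacna1c, the L-type calcium channel, fell by 1.42 and 1.13 on the log2 scale. Pln moved the other way. This gene codes for phospholamban, the brake on the calcium pump of the sarcoplasmic reticulum, and stood at 52.3, 113, 48.0, 86.9 and 81.4 and then at 256, 168 and 201 RPKM (log2 change 1.49 ± 0.27 SE, adjusted p = 0.0018), a rise in which the stages did not overlap. The falls numbered 12 in each run that left out 1 library, while the 4 rises were 2 without E9.5 replicate 1 or 3 and 1 with the epicardial level as a term.

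A smaller share of cardiac transcription factors passed the test than of all genes tested, 11 of 29 (37.9% against 51.0%), 10 of them falls. Gata4 stood at 123, 132, 146, 119.9 and 134 RPKM and then at 86.3, 75.0 and 76.8 (log2 change -0.72 ± 0.09 SE, adjusted p = 0.00025), and Mef2d fell by 0.79 on the log2 scale. Myocd, the coactivator of serum response factor in cardiac and smooth muscle, stood at 32.8, 27.8, 32.4, 30.4 and 35.9 and then at 17.5, 10.3 and 12.3 (log2 change -1.25 ± 0.15 SE, adjusted p = 0.00027), and Srf itself fell by 0.99. Nkx2-5, named after its values were seen, stood at 141, 103, 132, 111 and 96.8 and then at 48.1, 23.6 and 43.7 (log2 change -1.64 ± 0.22 SE, adjusted p = 0.00044). The single rise was Prrx1, a mesenchymal homeobox gene also named after its values were seen, at 4.58, 13.8 and 10.1 RPKM at E10.5 after 1.17 to 2.70 at E9.5 (log2 change 2.03 ± 0.32 SE, adjusted p = 0.00086). Of 20 chamber and trabecular genes 7 fell and 3 rose (median -0.20). Erbb2, the neuregulin co-receptor that trabeculation needs, fell by 0.94 from 27.5, 29.1, 25.5, 30.2 and 28.6 RPKM to 15.97, 12.9 and 14.4, and Notch1 and Slit3 fell by 0.85 and 0.81.

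**Figure D3:**
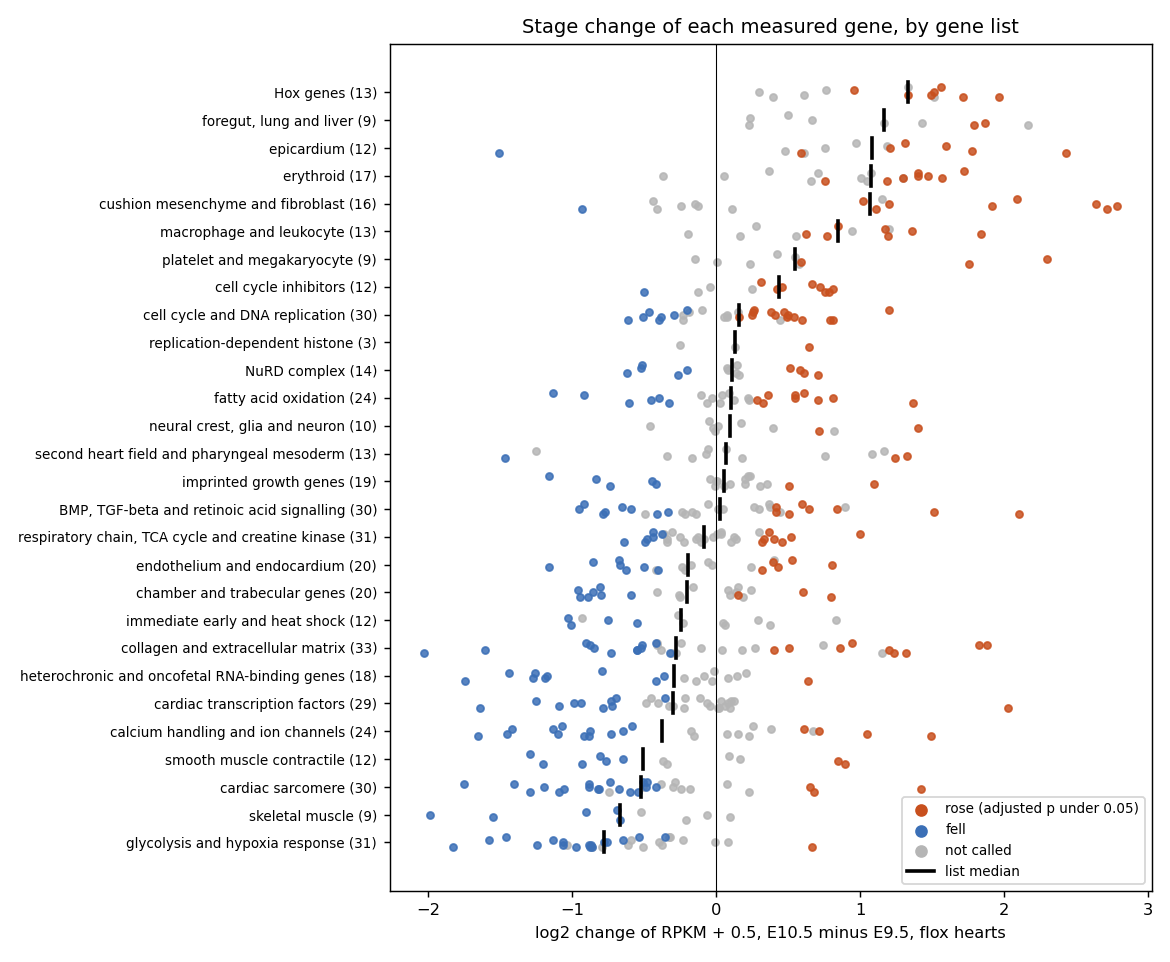
Log2 change from E9.5 to E10.5 in flox hearts of every measured member of 28 gene lists, ordered by list median (black bar), with rises in orange, falls in blue and genes that did not pass in grey. The medians run from -0.78 (glycolysis and hypoxia response, 31 genes) to 1.34 (Hox genes, 13 genes).

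Genes of the heart's surface layer were higher at E10.5. Of 12 measured epicardial genes 6 rose and 1 fell, with a median change of 1.08. Aldh1a2, which makes retinoic acid in the epicardium, stood at 0.766, 11.4, 3.099, 5.95 and 3.46 RPKM and then at 21.3, 23.6 and 22.3 (log2 change 2.43 ± 0.57 SE, adjusted p = 0.0065). Sema3d stood at 1.12, 5.26, 3.73, 2.98 and 4.32 and then at 10.3, 11.9 and 9.72 (log2 change 1.597 ± 0.35 SE, adjusted p = 0.0045), and Gpm6a at 1.63, 3.34, 1.75, 2.47 and 1.80 and then at 7.87, 5.84 and 4.73 (log2 change 1.31 ± 0.22 SE, adjusted p = 0.0012). The defining regulators Wt1, Tbx18 and Tcf21, named after their values were seen, were higher in the E10.5 mean but did not pass (log2 changes 0.61, 0.48 and 0.75, adjusted p = 0.11, 0.22 and 0.16). E9.5 replicate 1 was the lowest library for all 3. Krt19, an epithelial keratin, was the single fall, from 43.3, 46.7, 61.5, 198 and 52.9 to 27.3, 16.9 and 26.7 (log2 change -1.51 ± 0.45 SE, adjusted p = 0.019, and 0.075 without E10.5 replicate 2). E9.5 replicate 4 was by far its highest library, and the call stood without that library. Of the epicardial genes 3 rose without E9.5 replicate 5, E10.5 replicate 2 or E10.5 replicate 3, and 8 without E9.5 replicate 2. With the epicardial, erythroid or foregut, lung and liver level as a term 3, 3 and 2 rose. The epicardial term is the mean level of these same genes, so the count with it is no independent check.

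Markers of cushion mesenchyme and fibroblasts showed 8 rises and 1 fall among 16 (median 1.07). Snai2, a driver of the change from endothelium to mesenchyme, stood at 1.74, 3.12, 2.03, 2.82 and 2.80 RPKM and then at 11.0, 11.2 and 9.77 (log2 change 1.92 ± 0.16 SE, adjusted p = 8.8e-05). Twist1, another factor of that change, stood at 17.4, 26.8, 22.7, 24.1 and 20.8 and then at 45.8, 50.2 and 49.3 (log2 change 1.11 ± 0.12 SE, adjusted p = 0.00019). Cdh11, a mesenchymal cadherin, stood at 6.40, 18.0, 7.75, 10.8 and 11.2 and then at 44.4, 48.6 and 42.4 (log2 change 2.09 ± 0.27 SE, adjusted p = 0.00033). In all 3 genes the stages were far apart compared with the spread within a stage. Prrx2 was the exception and fell by 0.93 on the log2 scale. The 8 rises remained 8 or 9 in number when any 1 library was left out, and 8 without the pair of E9.5 libraries low in epicardial genes.

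Endothelial and endocardial genes were divided, 5 rises (3 without E9.5 replicate 1 or 3) and 7 falls among 20. Eng (endoglin), Tie1 and Sox18 fell by 0.86, 0.50 and 1.16 on the log2 scale, while Cd34 rose from 33.7, 29.3, 30.1, 31.2 and 32.1 RPKM to 44.7, 43.3 and 48.2 (log2 change 0.53 ± 0.07 SE, adjusted p = 0.00035). Smooth muscle contractile genes, which early myocardium also expresses, showed 6 falls and 2 rises among 12, with 1 rise without E10.5 replicate 2 or 3. Acta2, the smooth muscle actin of immature cardiomyocytes, stood at 1509, 1032, 1426, 1284 and 1271 and then at 654, 365 and 745 (log2 change -1.201 ± 0.23 SE, adjusted p = 0.0023). Tpm2, Smtn and Lmod1 fell by 0.93, 0.81 and 1.29, while Cald1 (caldesmon) rose from 39.7, 44.1, 46.2, 49.9 and 45.7 to 73.1, 90.7 and 89.4 (log2 change 0.89 ± 0.10 SE, adjusted p = 0.00017). Of the 9 skeletal muscle genes measured 5 fell and none rose by limma (0 rises at an unadjusted p under 0.05). Atp2a1, the calcium pump of fast skeletal muscle, stood at 7.78, 6.53, 8.59, 7.68 and 7.99 and then at 1.66, 1.54 and 1.502 RPKM (log2 change -1.99 ± 0.10 SE, adjusted p = 2.5e-05). Acta1 stood at 526.02, 346, 599, 491 and 374 and then at 189.9, 94.5 and 211 (log2 change -1.55 ± 0.27 SE, adjusted p = 0.0015). The skeletal master regulators Myod1 and Myf5, named after their values were seen, were at 0 in all E9.5 libraries and in E10.5 replicate 1, and reached 0.750 and 1.15 RPKM in E10.5 replicate 2 and 0.312 and 0.749 in replicate 3.

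Of 17 erythroid genes 8 rose, with a median of 1.08, but the list's share of reads overlapped between stages: E9.5 replicate 3 held 2.15%, above E10.5 replicates 1 and 3. Hbb-y, the embryonic globin that was the largest rise in RPKM, stood at 4405, 4040.1, 9526, 5786 and 6449 and then at 10175, 28567 and 9824 (log2 change 1.30 ± 0.43 SE, adjusted p = 0.031). E10.5 replicate 2 was its highest library. Without it 3 erythroid genes rose and Hbb-y no longer passed (adjusted p = 0.065). Hbb-y also lost its call without E9.5 replicate 1, 2, 4 or 5 (adjusted p up to 0.070). Of the erythroid genes 5 rose without E9.5 replicate 1, 2 or 4, and 12 without E9.5 replicate 3. With the epicardial level as a term 1 rose, and with the foregut, lung and liver level 0 by limma (3 at an unadjusted p under 0.05). Hba-a1 and Hba-a2 are near-identical and share their reads, so they are not separate members, although the list counts above hold both.

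Transcripts of macrophages were higher at a low level. Of 13 measured genes 7 rose and none fell by limma (median 0.84; none at an unadjusted p under 0.05), while the pan-leukocyte gene Ptprc stayed under 0.7 RPKM in every flox library. C1qb, a complement gene of tissue macrophages, stood at 0, 0.442, 0.865, 0.744 and 0.0454 RPKM and then at 1.21, 4.35 and 2.89 (log2 change 1.84 ± 0.42 SE, adjusted p = 0.006). Cx3cr1, a receptor of yolk sac-derived macrophages, stood at 0.0497, 0.113, 0.136, 0.460 and 0.154 and then at 0.400, 1.88 and 1.11 (log2 change 1.17 ± 0.31 SE, adjusted p = 0.011), and Lyz2, coding for lysozyme, at 3.45, 5.05, 4.01, 3.37 and 4.24 and then at 7.39, 6.44 and 9.04 (log2 change 0.84 ± 0.14 SE, adjusted p = 0.0013). Replicate 2 was again the highest E10.5 library for C1qb and Cx3cr1, and 4 genes rose without it. With the epicardial, erythroid or foregut, lung and liver level as a term 3, 2 and 3 rose. Members low at E9.5, such as Cx3cr1, passed the filter through their E10.5 levels, which favours rises. Of 9 platelet genes 3 rose. Ppbp stood at 0.0432, 7.85, 0.708, 2.92 and 2.72 and then at 8.397, 14.6 and 9.89 (log2 change 2.30 ± 0.74 SE, adjusted p = 0.027), and lost its call without E9.5 replicate 3 or any 1 of the E10.5 libraries (adjusted p up to 0.087). By limma 0 platelet genes rose without E9.5 replicate 3, E10.5 replicate 2 or E10.5 replicate 3 (3, 1 and 2 at an unadjusted p under 0.05), and 1 without E9.5 replicate 5 or E10.5 replicate 1.

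Genes of tissue next to the heart were seen in some libraries. Of 9 foregut, lung and liver genes 2 rose, the epithelial genes Epcam and Cdh1. Afp, a product of fetal liver named after its values were seen, was at 1.42, 148 and 0.975 RPKM in the E10.5 libraries, and at 24.8 in E9.5 replicate 2 where the remaining E9.5 libraries held between 0.0225 and 0.811 (adjusted p = 0.30). Epcam stood at 0.2498, 0.291, 0.670, 2.02 and 0.187 and then at 1.17, 2.95 and 8.97 (log2 change 1.87 ± 0.57 SE, adjusted p = 0.022, 0.087 without E10.5 replicate 3 and 0.050 without replicate 2). E10.5 replicate 3 was highest in Epcam and replicate 2 in Afp. In this list 1 gene rose without E10.5 replicate 2, and by limma 0 rose without E10.5 replicate 3 or without the E9.5 libraries low in epicardial genes (3 and 2 at an unadjusted p under 0.05). Of 10 measured neural crest, glial and neuronal genes 2 rose, Ets1 (0.72) and Nefm (1.40).

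**Figure D4:**
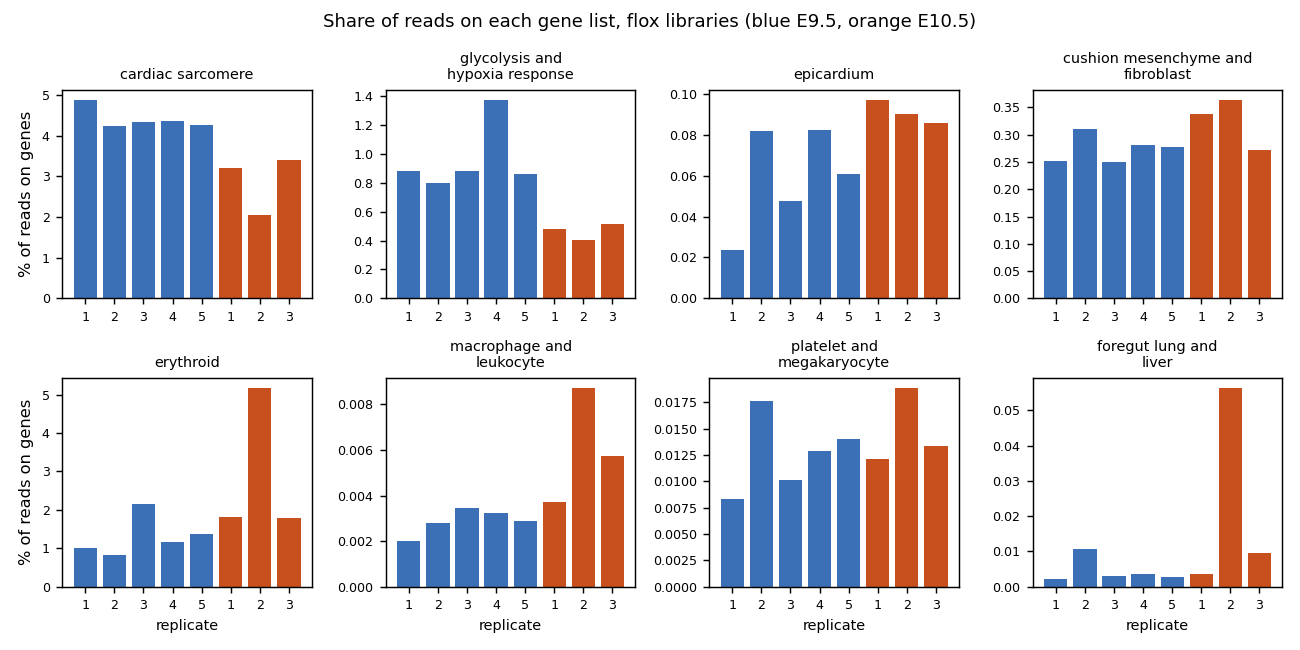
Share of the reads on genes, in percent and with each axis starting at 0, that fell on 8 gene lists in each flox library, E9.5 replicates 1 to 5 in blue and E10.5 replicates 1 to 3 in orange. The sarcomere and glycolysis shares are lower in every E10.5 library, the epicardial share runs from 0.0236 to 0.0972%, and E10.5 replicate 2 stands out in the erythroid share (5.18%) and the foregut, lung and liver share (0.0564%).

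Of 31 measured genes of glycolysis and the hypoxia response 17 fell, 1 rose and 13 did not pass, with a median of -0.78. Slc16a3, the lactate exporter MCT4 whose promoter opens the sequences above, stood at 185, 154, 204, 285 and 165 RPKM and then at 57.8, 48.8 and 56.5 (log2 change -1.83 ± 0.18 SE, adjusted p = 0.00012). Slc2a1, the glucose transporter GLUT1, stood at 491, 448, 487, 769 and 478 and then at 217, 142 and 176 (log2 change -1.57 ± 0.19 SE, adjusted p = 0.00029). Hk1, a hexokinase that commits glucose to the pathway, stood at 91.0, 96.9, 90.6, 109.9 and 90.3 and then at 53.4, 42.9 and 62.6 (log2 change -0.86 ± 0.12 SE, adjusted p = 0.00051), and Eno3, the muscle enolase, at 178, 135, 159, 159 and 152 and then at 80.3, 66.2 and 93.0 (log2 change -0.98 ± 0.12 SE, adjusted p = 0.00029). Aldoa stood at 567.6, 492, 553, 787 and 541 and then at 281, 210.4 and 363 (log2 change -1.06 ± 0.19 SE, adjusted p = 0.0019).

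Every E10.5 library lay below every E9.5 library for these 5 genes, whether or not the promoter window held ACGTG or CACGT. E9.5 replicate 4 was the highest E9.5 library in Slc16a3, Slc2a1, Hk1 and Aldoa. Without that library 19 list members fell, without E10.5 replicate 2 it was 13, and without both 16. With the epicardial, erythroid or foregut, lung and liver level as a term 11, 9 and 11 fell. Ldhb, the heart form of lactate dehydrogenase, was the single rise of the list. Of the hypoxia markers outside glycolysis, Ndufa4l2 and Egln3 were high in E9.5 replicate 4 alone. They were at 23.8 and 23.4 RPKM there and at 0.579 to 5.45 in the other 7 flox libraries, and neither passed (adjusted p = 0.34 and 0.60). Vegfa fell by 0.87 on the log2 scale. Car9, Ankrd37, Bnip3 and P4ha1 did not pass (log2 changes -0.86, -0.61, -0.59 and -0.40). All of these markers were named after their values were seen. Gapdh, which has many processed copies and was at most 4.93 RPKM in any flox library, is uncertain.

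Fatty acid oxidation had no common direction, with 9 rises and 6 falls among 24 (median 0.11), and 4 rises and 3 falls with the epicardial level as a term. Esrra and Ppargc1b, regulators of mitochondrial genes, fell: Esrra stood at 22.7, 22.8, 21.7, 18.97 and 20.2 RPKM and then at 9.23, 8.45 and 10.7 (log2 change -1.13 ± 0.09 SE, adjusted p = 8.5e-05), and Ppargc1b fell by 0.92. Etfa and Decr1, enzymes of beta-oxidation, rose by 0.61 and 0.55 from means of 28.3 and 15.5 RPKM. The 2 forms of the carnitine transferase that admits fatty acids to mitochondria changed in opposite directions. Cpt1a, the liver form, stood at 1.40, 5.09, 1.89, 2.67 and 2.97 and then at 5.98, 8.78 and 7.93 (log2 change 1.37 ± 0.30 SE, adjusted p = 0.0049). Cpt1b, the muscle form, stood at 56.5, 60.5, 48.7, 57.6 and 54.2 and then at 41.2, 26.5 and 43.3 (log2 change -0.61 ± 0.15 SE, adjusted p = 0.0081), and remained the more abundant by RPKM in every library. Of 31 genes of the respiratory chain, the citric acid cycle and creatine kinase 7 rose and 6 fell (median -0.08). One library turned this balance, with 2 rises and 10 falls without E10.5 replicate 3. Without E10.5 replicate 1 the rises numbered 3. With the erythroid or the foregut, lung and liver level as a term 8 rose and 1 fell, and with the epicardial level 1 rose and 2 fell. Ndufs1 and Uqcrc2 rose by 0.37 and 0.40 and Ndufv1 and Uqcrc1 fell by 0.48 and 0.44, all parts of complexes I and III.

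More genes of cell division rose than fell. Of 30 measured 14 rose and 7 fell, with a median of 0.16. Pcna, the clamp of the replication fork, was tight in both stages, at 12.1, 14.5, 12.5, 12.2 and 13.6 RPKM and then at 31.0, 30.5 and 29.9 (log2 change 1.202 ± 0.07 SE, adjusted p = 2.9e-05). Ccne2, a cyclin of S phase entry, stood at 22.2, 22.9, 21.7, 19.2 and 22.0 and then at 43.0, 34.8 and 35.9 (log2 change 0.79 ± 0.09 SE, adjusted p = 0.0002), and Top2a and Bub1 rose by 0.54 and 0.60. In the list of cycle inhibitors and related regulators 8 of 12 rose as well, against 1 fall. Rbl1, the pocket protein p107, stood at 6.86, 8.33, 7.54, 7.45 and 7.97 and then at 14.4, 13.3 and 11.2 (log2 change 0.72 ± 0.10 SE, adjusted p = 0.00041). Meis2, a homeobox gene counted in that list, stood at 18.9, 18.96, 16.6, 20.9 and 16.5 and then at 28.9, 31.8 and 33.2 (log2 change 0.76 ± 0.09 SE, adjusted p = 0.00026). Ccnd2 over Ccnd1, 2 cyclins of the G1 phase, was lower in every E10.5 library (difference -0.84).

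Of 18 heterochronic and oncofetal genes, which are active in the early embryo and timed by microRNAs, 9 fell and 1 rose (median -0.29). Lin28a, which blocks maturation of the let-7 microRNAs, stood at 43.5, 9.83, 45.6, 20.8 and 20.7 RPKM and then at 7.04, 5.15 and 9.04 (log2 change -1.75 ± 0.45 SE, adjusted p = 0.0097). Its paralog Lin28b did not pass, at 10.2, 7.36, 9.70, 8.404 and 8.60 and then 9.27, 8.29 and 8.35 (log2 change -0.03 ± 0.11 SE, adjusted p = 0.84), so that the log2 ratio of Lin28b to Lin28a was -2.04, -0.40, -2.18, -1.26 and -1.22 and then 0.37, 0.64 and -0.11. At E9.5, replicates 1 and 3 held the most Lin28a and replicate 2 the least. Trim71, a let-7 target, stood at 5.22, 3.58, 5.25, 4.53 and 4.36 and then at 1.82, 1.38 and 1.59 (log2 change -1.27 ± 0.13 SE, adjusted p = 0.00015), and Arid3b and Mycn fell by 1.19 and 0.79. Hmga2, a chromatin protein that is also a let-7 target, was the single rise, at 53.2, 55.98, 57.4, 54.6 and 54.7 and then 84.7, 85.6 and 88.0 RPKM (log2 change 0.64 ± 0.06 SE, adjusted p = 9.1e-05). Lin28a lost its call without E9.5 replicate 4 and E10.5 replicate 2 together (adjusted p = 0.055). The call was also lost with the epicardial or the foregut, lung and liver level as a term (0.16 and 0.073).

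Of 33 measured matrix genes 12 fell and 9 rose (median -0.28). With the epicardial level as a term 14 fell and 3 rose, and with the foregut, lung and liver level 13 and 5. Hspg2 (perlecan), a heparan sulphate proteoglycan of basement membranes, stood at 43.3, 46.2, 38.4, 55.4 and 47.6 RPKM and then at 15.8, 14.2 and 14.3 (log2 change -1.61 ± 0.11 SE, adjusted p = 4.1e-05). Col18a1, also of basement membranes, fell by 0.73 and Fbln1 (fibulin 1) by 0.88. The fibrillar collagens Col3a1 and Col5a2, named after their values were seen, rose, Col3a1 from 27.2, 58.6, 30.4, 40.7 and 36.9 RPKM to 74.6, 95.1 and 91.8 (log2 change 1.203 ± 0.22 SE, adjusted p = 0.0018) and Col5a2 by 0.86. In BMP, TGF-beta and retinoic acid signalling, 8 genes rose and 8 fell among 30. The receptor Tgfbr1 rose from 28.0, 29.2, 28.2, 27.4 and 28.3 to 44.6, 46.5 and 42.1 (log2 change 0.64 ± 0.06 SE, adjusted p = 9.8e-05), while the ligand Tgfb1 fell by 0.65, the inhibitory Smad6 by 0.92 and the retinoic acid receptor Rara by 0.77.

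Hox genes, which mark position along the body axis, had the highest list median (1.34), with 7 rises and no fall by limma among 13 measured (no fall at an unadjusted p under 0.05). Of 22 listed Hox genes these 13 passed the filter. Members near 0 at E9.5, such as Hoxc5, passed it through their E10.5 levels, which favours rises and a high median. With the epicardial level as a term 1 rose, and 2 with the erythroid or the foregut, lung and liver level. Hoxa2 stood at 0.630, 1.01, 1.06, 1.56 and 0.569 RPKM and then at 1.35, 8.87 and 9.43 (log2 change 1.97 ± 0.51 SE, adjusted p = 0.01), high in E10.5 replicates 2 and 3 and inside the E9.5 range in replicate 1. Hoxc5 stood at 0.0171, 0.468, 0.336, 0.343 and 0.0176 and then at 1.67, 3.62 and 0.930 (log2 change 1.72 ± 0.35 SE, adjusted p = 0.0033), and Hoxd3 rose by 1.49. Hoxc8, a posterior gene named after its values were seen, was at 8.81, 0.188 and 0 in the E10.5 libraries and at most 0.0430 at E9.5, high in replicate 1 alone, and did not pass (adjusted p = 0.14). The Hox rises numbered 4 without E10.5 replicate 2. Of 13 second heart field and pharyngeal genes 2 rose and 1 fell. The rises numbered 5 without E10.5 replicate 1 and 1 without replicate 2 or 3. Foxc1 stood at 3.86, 4.79, 3.80, 3.72 and 3.87 and then at 7.51, 10.3 and 15.9 (log2 change 1.33 ± 0.20 SE, adjusted p = 0.00069), and Eya1 at 0.732, 0.807, 0.482, 1.05 and 0.633 and then at 0.874, 3.15 and 4.39 (log2 change 1.24 ± 0.36 SE, adjusted p = 0.017, 0.067 and 0.072 without E10.5 replicate 2 or 3), with replicate 1 inside the E9.5 range for Eya1. Fgf8, a growth factor of the second heart field, stood at 3.58, 0.648, 3.37, 3.38 and 1.83 and then at 0.508, 0.338 and 0.703 (log2 change -1.46 ± 0.40 SE, adjusted p = 0.013). Fgf8 lost its call with the epicardial or the foregut, lung and liver level as a term (adjusted p = 0.20 and 0.092). The call was also lost without the E9.5 libraries low in epicardial genes (0.061) and without E9.5 replicate 4 and E10.5 replicate 2 together (0.081).

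Subunits of NuRD changed little in sum and in both directions, with 4 rises and 5 falls among 14 (median 0.11). The falls numbered 3 without any 1 of 6 libraries (all but E9.5 replicate 2 and E10.5 replicate 3). Chd4 stood at 91.4, 92.3, 94.6, 91.2 and 92.7 RPKM and then at 67.2, 74.6 and 91.1 (log2 change -0.26 ± 0.09 SE, adjusted p = 0.039). The call was lost without any one library other than E10.5 replicate 3, with adjusted p up to 0.15, and replicate 3 lay close to the E9.5 level. Hdac2, a deacetylase of the complex, stood at 83.5, 84.2, 86.7, 76.8 and 83.4 and then at 128, 123 and 129.9 (log2 change 0.61 ± 0.06 SE, adjusted p = 0.00015). Rbbp4, a histone-binding subunit, and Mbd2, which binds methylated DNA, rose by 0.51 and 0.58, and Gatad2a fell by 0.51. Among imprinted growth genes 5 of 19 fell and 2 rose, and Nnat rose from 65.8, 63.8, 77.7, 66.5 and 61.3 to 90.4, 165 and 198 (log2 change 1.10 ± 0.21 SE, adjusted p = 0.0026). The imprinted falls numbered 1 to 3 without E9.5 replicate 1 or 3 or any 1 of the E10.5 libraries, and 1 rose without E9.5 replicate 1 or 3 or E10.5 replicate 1. Among 12 immediate early and heat shock genes 4 fell and none rose by limma (1 rose at an unadjusted p under 0.05). Junb and Nr4a1 fell by 1.01 and 0.75 on the log2 scale. Of 3 measured replication-dependent histone genes 1 rose, Hist1h2bc.

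Hearts of null embryos passed through the same 2 tables, so a shift of a whole table would touch both genotypes. Chd4 itself was at 40.7 to 57.4 RPKM in the null libraries, against 67.2 to 94.6 in the flox libraries. Fitted alone over the same genes, the null hearts gave 1143 calls (8.36%), 746 rises and 397 falls. Of these, 864 were also called in flox with the same sign, which is 75.6% of the null calls and 12.4% of the flox calls, and 5 were called with opposite sign. Null libraries were uneven within a stage. Erythroid genes held 4.31, 3.47 and 10.1% of reads on genes in null E10.5 replicates 1 to 3. At E9.5 they held 2.09 to 5.55% in null libraries. Spread within a stage lowers the number of calls, so fewer calls in null hearts do not show a smaller change. Across the 13669 genes, which are not independent, the stage changes of the genotypes had a Pearson r of 0.583. The difference of the 2 stage changes was tested in 1 fit of 16 libraries and passed for 531 of 13886 genes (3.82%), with the flox change above the null in 182 and below it in 349. This count moved widely when single libraries were left out, from 4 without flox E10.5 replicate 1, 9 without flox E10.5 replicate 2 and 11 without null E9.5 replicate 5 to 1791 without null E10.5 replicate 2. The gene calls of this difference given below were made with all 16 libraries.

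The fall of glucose genes was among the differences. In null hearts Slc16a3 changed by -0.45 and Hk1 by -0.16 on the log2 scale, and 3 of 31 list members rose there. The change was higher in null than in flox hearts for all 31. The null libraries were uneven in this list: E10.5 replicate 1 held 1.16% of reads on it where replicates 2 and 3 held 0.728 and 0.678%, and E9.5 replicate 4 held 1.31% where the remaining E9.5 null libraries held between 0.762 and 0.917%. The part of these libraries in the difference was not tested. The difference, flox minus null, was -1.38 ± 0.27 SE, adjusted p = 0.024 for Slc16a3, -0.70 ± 0.17 SE, adjusted p = 0.037 for Hk1, -0.87 ± 0.17 SE, adjusted p = 0.024 for Eno3 and -1.07 ± 0.27 SE, adjusted p = 0.04 for Aldoa, 7 list members passing in all. For Slc2a1 it was -1.03 ± 0.38 SE, adjusted p = 0.11. The skeletal isoforms differed too: Atp2a1 changed by -0.34 in null hearts (difference -1.64 ± 0.19 SE, adjusted p = 0.0043), and Acta1 by -0.01 (-1.54 ± 0.33 SE, adjusted p = 0.03). Apoe, a lipid carrier, stood at 107, 80.9, 95.5, 88.5 and 75.2 RPKM in flox at E9.5 and at 46.4, 44.4 and 52.4 at E10.5, and changed by 0.41 in null hearts (-1.30 ± 0.18 SE, adjusted p = 0.012). Lmf2, Mbd6, Nr1h2 (a sterol receptor) and Slc12a9 are the others with the smallest p of this difference, each lower at E10.5 in flox and nearer to 0 in null hearts. Lin28a and Trim71 changed by -1.29 and -1.21 in null hearts, and Postn and Dcn by 1.67 and 1.82. Their difference did not pass, which does not show that the genotypes were alike. Null E10.5 replicates 2 and 3 held 0.374 and 0.258% of reads on foregut, lung and liver genes, above every flox library, and the part of this in the differences was not tested.

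**Figure D5:**
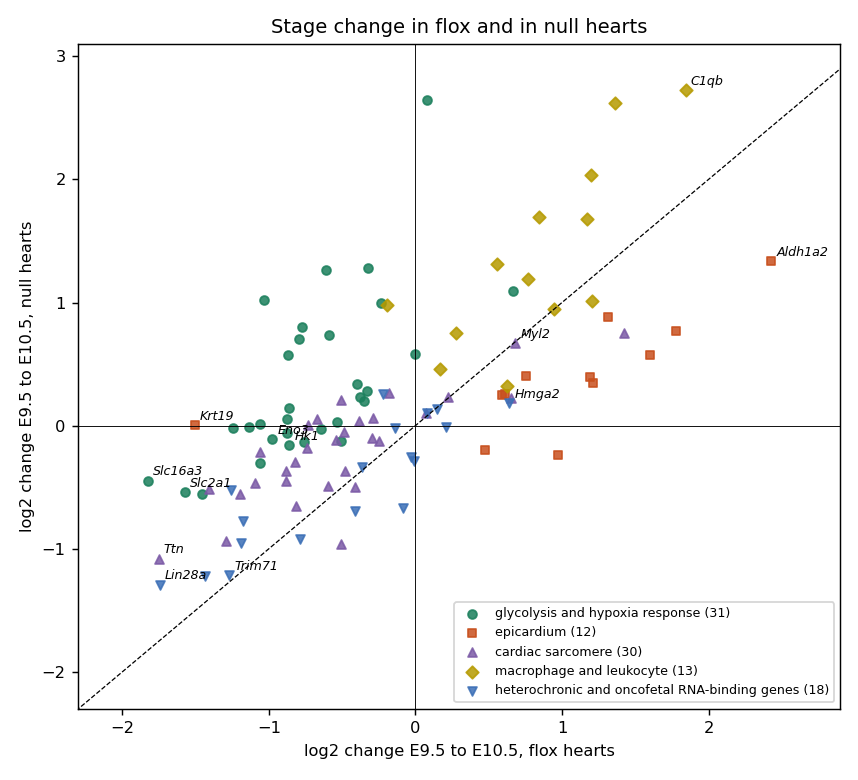
Log2 stage change in null hearts against that in flox hearts for the measured members of 5 gene lists, with the line of equal change dashed. All 31 glycolysis and hypoxia genes (circles) lie above the line, as Slc16a3 does at -1.83 in flox and -0.45 in null hearts, while Lin28a and Trim71 lie near it.

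Binding of CHD4 in wild-type hearts at E10.0 was set beside the flox stage change. The 3 deposited peak lists held 84271, 60749 and 50232 peaks, from 2 biological samples by the series text, and 22824 peaks of the first list overlapped both others by at least 1 bp. Such a shared peak lay within 5 kb of either end of 78.8% of the genes that fell (2340 of 2968, 95% exact interval 77.3 to 80.3%), of 58.7% of the genes that rose (2211 of 3767, 57.1 to 60.3%) and of 66.0% of genes not called (4268 of 6471, 64.8 to 67.1%). The intervals cover counting error over genes only. Peaks were more often found near highly expressed genes, yet the order fell, not called, rose was the same in each quintile of mean expression, with 58.6, 46.4 and 30.0% in the lowest and 88.6, 82.5 and 74.6% in the highest. The order was also the same at 1 kb and 50 kb, with the upper part of peaks by score and with a larger overlap. These are shares with no test, since genes that share neighbourhoods are not independent.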

How the data were processed

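Poly(A) RNA of cardiac tissue was sequenced from stranded libraries, per the labels' protocols. The authors deposited RPKM values per gene and library, 1 table per stage. The submitters' processing notes name MACS2, HTSeq 0.6.2, Bowtie 1.2.0, bedtools 2.25.0, DESeq2 1.6.3, SAMtools 1.6 and the build mm10, without saying which step each served. The deposited peak lists give a score per peak, which was used only to rank peaks within a list. RPKM multiplied by gene length gave whole reads in every library, from which depth was computed.

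Libraries were grouped by the labels. Genes averaging 0.5 RPKM or more across flox libraries were kept, and log2(RPKM + 0.5) was fitted with limma 3.58.1 (trend, R 4.3.3) with Benjamini-Hochberg adjustment. The difference of stage changes used all 16 libraries. Ratios of 20 gene pairs were tested by exact permutation (scipy 1.17.1). Peaks were compared with bedtools 2.31.1. The fit was tested on simulated data. The members and lists were chosen with earlier results of these data known. Named were the 15 largest changes per direction at a stage mean of at least 5 RPKM, the 10 highest in RPKM per direction, up to 4 members per list by smallest p, the pairs and 6 genes of the difference. Others are marked as chosen after their values were seen. Some genes that the rule names are not reported here. Alternatives were other pseudocounts, filters, scalings, covariates, weights, a replicate block and leaving out libraries.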

Additional observations from a re-analysis of the deposited data

Results flagged for a closer look

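In groups of 5 E9.5 libraries, single libraries stood far from the others for 17 of the 148 named genes. Chance alone would flag about 1 group in 20 if genes were independent. Many of the flags fell in the same library, so that rate is no yardstick here. Replicate 4 was the far highest for genes of glycolysis and the hypoxia response, with Aldoa at 787 RPKM where the next highest held 567.6, Slc2a1 at 769, Ndufa4l2 at 23.8 and Egln3 at 23.4. The same library was highest for Krt19 (198 RPKM), Lum (3.99), Ebf3 (3.43), Epcam (2.02), Cx3cr1 (0.460), Mycn (43.1) and Rara (14.1). Replicate 2 was highest for Afp (24.8 RPKM), Foxc1 (4.79) and Ndufv1 (112). Replicate 3 was highest for Hba-a1 (23.0 RPKM) and its near-identical copy Hba-a2 (22.9), and replicate 1 lowest for Tbx18 (10.2).

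For 26 of the 148 named genes the stage change differed between flox and null hearts by the test of the difference itself. Over all genes tested it differed for 531 of 13886 (3.82%). Some of the 26, such as Atp2a1 and Apoe, were named for the smallest p of this same difference. Others, such as Cck, were named for a large flox change, which enters the difference. The count among named genes is therefore raised by how they were chosen. The count of such genes over the whole table moved from 4 to 1791 as single libraries were left out. The flox change was lower for Cck (flox minus null -2.51 on the log2 scale), Atp2a1 (-1.64), Gapdh (-1.58), Acta1 (-1.54), Slc16a3 (-1.38) and Apoe (-1.30). It was lower also for Dmpk (-1.14), Slc12a9 (-1.08), Aldoa (-1.07), Rplp1 (-1.06), Col2a1 (-1.04), Cacna1h (-1.04) and Llgl2 (-1.01). Smaller differences of that sign were Aldoart2 (-0.98), Tpm2 (-0.98), Fbln1 (-0.97), Nr1h2 (-0.94), Lmf2 (-0.88), Eno3 (-0.87), Tgfb1 (-0.71), Mbd6 (-0.71) and Hk1 (-0.70). The flox change was higher for Tgfbr1 (0.83), Ccne2 (0.60), Rbl1 (0.59) and Hdac2 (0.37).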

How the results depend on the processing

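The count of genes changed in flox hearts stayed within 1.5 times of 6971 under every alternative run except the epicardial level as a term (4496), and ran from 5958 to 6737 with 1 library left out. The difference between flox and null (531 genes) gave 797 with median scaling, 860 with quantile normalization and 301 with library weights, and 4 to 1791 with 1 library left out. The cause was not tested. A shared CHD4 peak lay near 51.0, 80.3, 48.7 and 56.2% of genes that rose with a 1 kb window, a 50 kb window, the upper part of peaks by score and a larger overlap, and near 65.6, 95.1 and 71.8% of genes that fell under the first 3. Some genes that had not passed changed sign. With the epicardial level as a term Lin28b was at 0.18, Tbx18 at -0.31, Tcf21 at -0.36 and Wt1 at -0.17. Tbx18, Tcf21 and Wt1 belong to the list whose mean level was that term, so their change of sign is no independent check. With the foregut, lung and liver level Afp was at -1.23 and Lin28b at 0.0830. Afp likewise belongs to the list behind that term. With 1 library left out Lin28b ran from -0.0892 to 0.0236, above 0 without E9.5 replicate 1 or 3, and was at 0.0851 without both. Egln3 ran from -0.51 to 0.12, above 0 without E9.5 replicate 4, and without that library and E10.5 replicate 2 it was at 0.0772 and Afp at -0.0889. Replicate numbers did not pair the libraries: same-numbered libraries had correlations of 0.0946, 0.0666 and 0.0207. With a replicate block 5567 genes passed, and 722 for the difference, Egln3 was at 0.18, and of the 8 erythroid rises 0 passed by limma (3 erythroid rises at an unadjusted p under 0.05). Alternatives with libraries left out in pairs and the filter on gene length were chosen after seeing the data.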

Other observations

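Of 99 measured ribosomal protein genes, which no list above holds, 38 rose and 19 fell, from -1.81 for Rplp1 to 1.85 for Rpl26 on the log2 scale, and the SD of their changes was 0.672. The SD was 0.528 over all genes tested and 0.642 over the shortest class of genes by length, up to 1489 bp. The change had the same sign in null hearts for 77 of the 99, and the Pearson r across these genes, which are not independent, was 0.866. Many have processed copies elsewhere in the genome, which makes their RPKM uncertain.

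Gene length moved with the stage change differently in each genotype. Over 5 equal classes of genes from shortest to longest, the median log2 change was -0.03, 0.03, 0.05, 0.08 and 0.08 in flox hearts and 0.20, 0.11, 0.03, -0.03 and -0.13 in null hearts. The part of this in the differences between genotypes was not tested.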
